A study of Mus musculus with 31 samples.

Results

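In Ly6C-high monocytes, 153 of the 24411 entries of the deposited gene count table were higher in 2 steps, from the blood of healthy mice to the blood of mice carrying a Lewis lung carcinoma (LLC), and from there to the tumor. The 153 genes were chosen by a rule on the measured values: a tumor mean of at least 10 CPM (counts scaled by the library total), a ratio of at least 1.5 in each step after 1 CPM had been added to both group means, and no overlap between the libraries of neighbouring groups. Their values in these 3 groups are therefore a description, with no test. Of all entries, 8383 reached the tumor minimum, 988 met the blood condition, 710 of these also met the tumor minimum, and 1497 met the tumor condition together with that minimum.

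The cells came from C57BL/6J mice and were gated as CD11b+ Ly6G- Ly6Chi MHC-II- cells from 3 sources: blood of mice without a tumor (healthy blood), blood of mice with a subcutaneous LLC tumor (LLC blood), and the LLC tumors themselves (LLC tumor). LLC is a transplantable mouse lung carcinoma line. Each group has 3 RNA-seq libraries. The labels give no age, sex or tumor stage and do not say whether libraries of a group came from separate animals or pools, so the spread between them may be technical. The heads of the blood columns in the count table carry the letters BM. They were read as blood monocyte because the titles, descriptions and tissue labels of these samples all say blood, but the letters could also stand for bone marrow, which the table itself cannot tell apart. The other 22 of the 31 samples of the series, which profile chromatin, were not analysed here.

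Ly6C-high monocytes are the inflammatory monocytes of the mouse. They leave the bone marrow through the chemokine receptor Ccr2, circulate briefly, and enter inflamed tissue and tumors, where they can become macrophages or remain as suppressive myeloid cells. Tumors also act on myeloid cells at a distance, through growth factors and cytokines that reach the marrow and the blood. In sorted bulk RNA, a change in the mix of cells and a change in the RNA of each cell cannot be told apart.

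Total counts ran from 10457492 to 20706412 per library. The 9 monocyte markers summed to between 38803 and 42121 CPM in the healthy libraries, between 30228 and 34752 CPM in LLC blood and between 22059 and 25920.1 CPM in the tumor. Lyz2 weighed most in the fall, with group means of 27021, 17289 and 7912 CPM. Ly6c2 went from between 1571 and 1728 CPM in healthy blood to between 272.4 and 472.5 CPM in tumor. Itgam and Fn1 were higher in every tumor library than in LLC blood, and the other monocyte markers were lower. Markers of other cells differed between libraries. The 11 fibroblast markers summed to between 37.4 and 67.6 CPM in healthy blood. In LLC blood they summed to 443.9 CPM in library 1 and to 17.5 and 18.8 CPM in libraries 2 and 3, with Col1a1, a fibrillar collagen, at 212.2, 0.0692 and 0 CPM. In LLC tumor they summed to 975.7, 3624 and 4112 CPM. Mature macrophage markers summed to between 528.3 and 584.2 CPM in blood and between 1370 and 1927 CPM in tumor, and the 15 neutrophil markers in the table to between 625.1 and 1351 CPM over all 9 libraries. The 8 markers of LLC tumor and epithelial cells summed to between 9.20 and 11.48 CPM in blood and to 71.9, 111.5 and 86.1 CPM in tumor. Cdh1 gave the most there, and Krt19 and Epcam were at 0 to 0.259 CPM. Krt18 was at most 0.429 CPM in blood and at 3.973, 34.84 and 22.03 CPM in tumor. Krt8 was at most 0.286 CPM in blood and at 6.32, 8.155 and 13.74 CPM in tumor. Krt7 went the other way, from between 1.66 and 7.79 CPM in blood to between 0.271 and 0.864 CPM in tumor. The 8 platelet markers summed to between 4.46 and 22.5 CPM in blood and between 138.8 and 222.7 CPM in tumor, nearly all of it Pf4 and Ppbp. T cell markers summed to between 34.9 and 123.8 CPM in healthy blood and between 14.6 and 15.21 CPM in LLC blood. In tumor they summed to between 103.1 and 124.5 CPM, nearly all of it Il7r, at 121.4, 103.5 and 99.5 CPM. Cd3d, Cd3e and Cd3g were at 0 to 0.709 CPM there. Endothelial markers summed to between 16.8 and 24.1 CPM in blood and between 57.9 and 72.8 CPM in tumor. Sums that were lower in the later group included those of NK cells, from between 204.2 and 500.5 CPM in healthy blood to between 28.2 and 52.996 CPM in LLC blood, and of erythroid cells, from between 168.5 and 920.4 CPM in LLC blood to between 1.08 and 3.46 CPM in tumor. Of the 153 genes, Itgam is on the monocyte list and Il1r2 on the neutrophil list, and none is on the other marker lists. The part of these cells in the results was not tested.

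The members had a median level of 6.74 CPM over healthy blood, 16.1 CPM over LLC blood and 56.8 CPM over the tumor libraries. The blood step, the log2 ratio of the LLC blood mean to the healthy mean with 1 CPM added to each, ran from 0.59 to 3.35 with a median of 0.85. The tumor step, the same ratio of LLC tumor to LLC blood, ran from 0.59 to 5.58 with a median of 1.51. Over the 12337 genes tested, the medians were 0.01 and -0.21. Both steps understate the change of genes with a low CPM. The tumor step was the larger of the pair in 112 members and the blood step in 41. Measured on the log2 scale, the blood step made up between 11.7% and 77.8% of the whole rise, with a median of 39.5%. In 29 members it made up under 25%. A ratio of at least 2 in both steps was reached by 47 members, and 24 rose at least 8-fold in the tumor step.

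**Figure D1:**
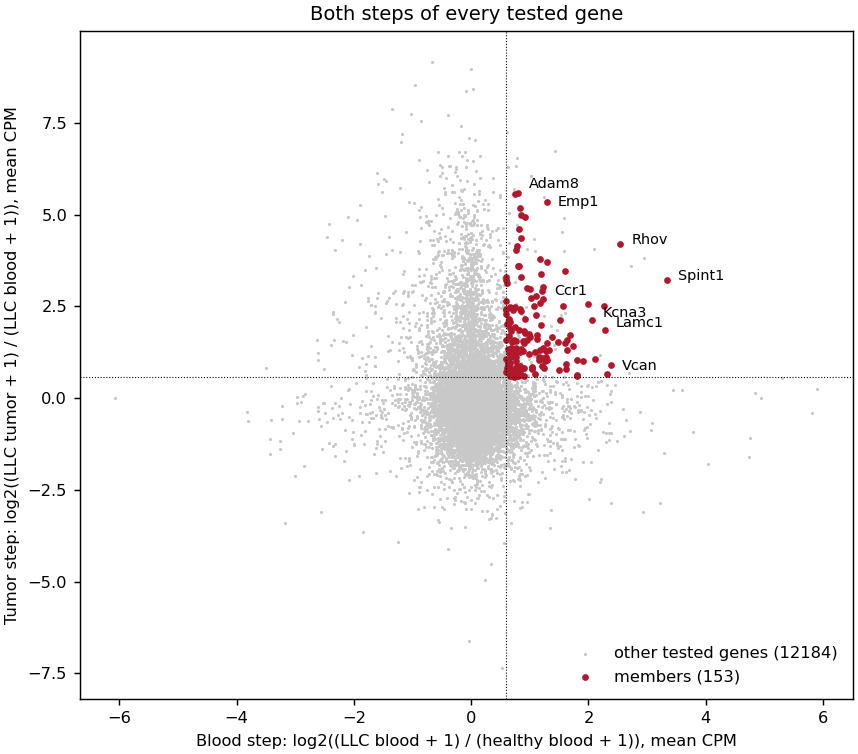
Blood step (horizontal axis) against tumor step (vertical axis), both as log2 ratios of group mean CPM with 1 CPM added, for the 153 members (red) and the other 12184 tested genes (grey); dotted lines mark the ratio of 1.5 used by the rule. Spint1 and Rhov lie far out on both axes, Vcan mainly on the blood axis, and Adam8 and Emp1 mainly on the tumor axis.

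**Figure D2:**
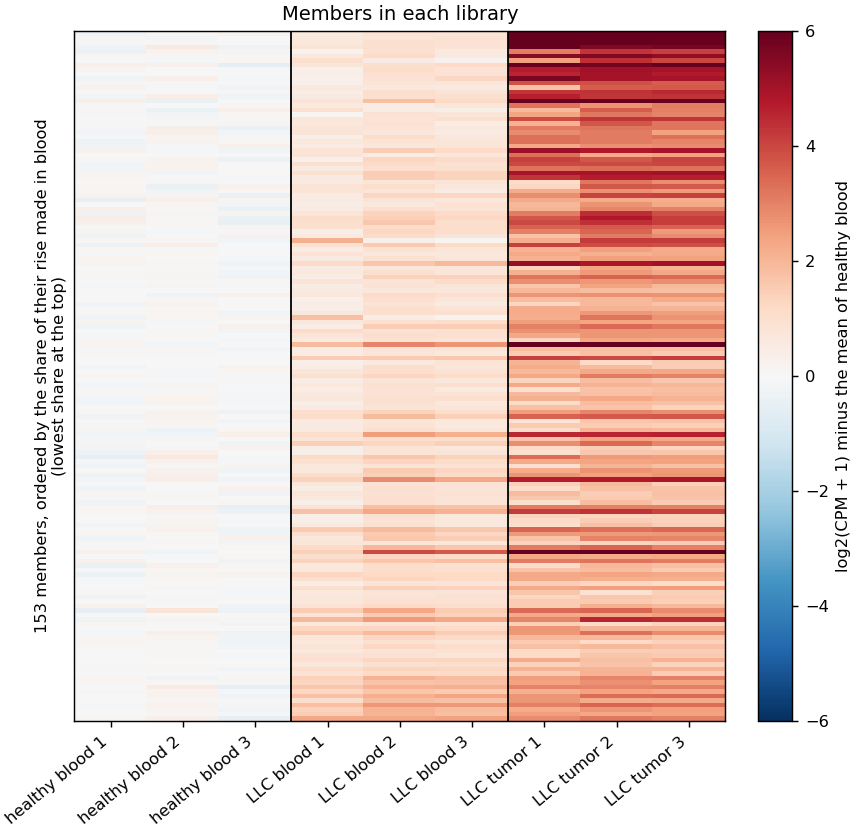
Each row is 1 of the 153 members, each column 1 of the 9 libraries, and the colour gives log2(CPM + 1) minus the mean of the healthy blood libraries. Rows are ordered by the share of the rise made in blood, from 11.7% at the top to 77.8% at the bottom; the LLC blood columns lie between the other groups by the rule, and LLC blood 1 is paler than LLC blood 2 in most rows.

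All 153 members passed the filter on low counts and entered the edgeR fit of all genes. As a description, since the rule used the same contrasts, 133 were called higher in LLC blood than in healthy blood at a Benjamini-Hochberg adjusted p under 0.05, where 14% of all tested genes were. All 153 were called higher in LLC tumor than in LLC blood (29.6% of tested genes) and in LLC tumor than in healthy blood (33.5%). In both steps 133 members were called, against 3.43% of tested genes. The 20 members not called in the blood step were Trem1, Fabp5, Fem1c, Agpat9, Ptafr, Nrp2, Slc16a1, Hivep2, Syne1, Pls3, Col7a1, Efemp2, Dagla, Lonrf3, Cdc42bpa, Fam20a, Lamb2, Erc1, Ift80 and Myh10. For these genes the values below give the level in LLC blood, and nothing more is said of that step.

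By role, the members were sorted by hand into surface receptors and adhesion molecules (26), secreted, matrix and protease genes (20), cytoskeleton and membrane traffic (42), metabolism and transport (28), transcription, signalling and protein turnover (29), and genes not classed (8). The median tumor step was highest in the secreted, matrix and protease class, at 2.00, and in metabolism and transport, at 1.89. It was lowest in cytoskeleton and membrane traffic, at 1.17. The median blood steps lay closer together, between 0.79 and 1.00. These are medians over genes chosen by the same values and carry no test.

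**Figure D3:**
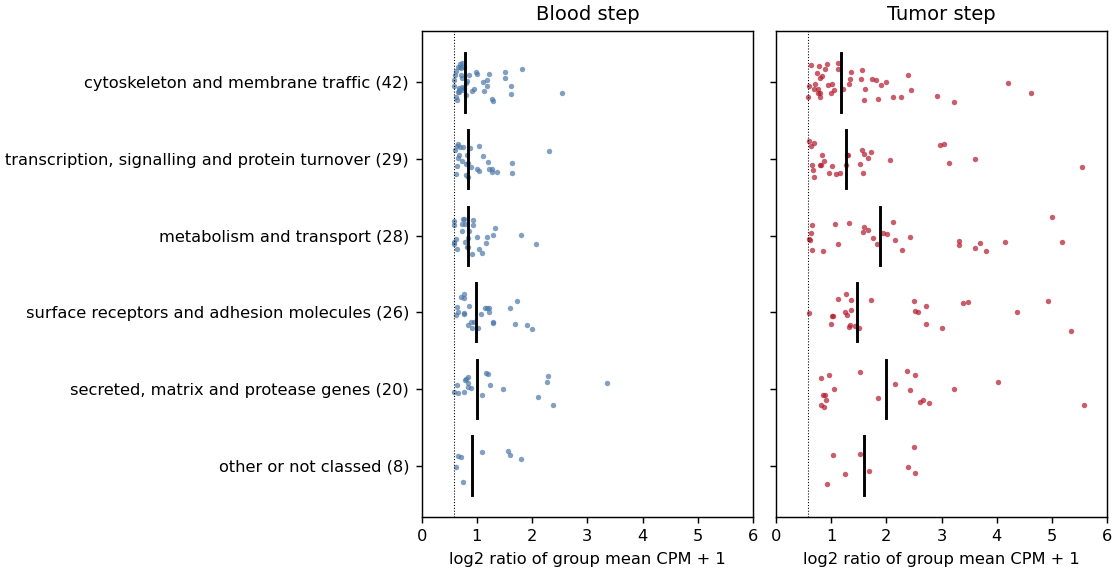
Blood step (left) and tumor step (right) of each member, by class, as log2 ratios of group mean CPM with 1 CPM added; thick bars are class medians and the dotted line is the ratio of 1.5 used by the rule. Points crowd near the dotted line in the blood step and spread to beyond 5 in the tumor step.

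The surface class holds an integrin chain, a chemokine receptor and cytokine receptors. Itgam (ENSMUSG00000030786), the CD11b integrin chain used in the sort, stood at 949, 922 and 893 CPM in the healthy libraries, 1337, 1490.0 and 1490.5 CPM in LLC blood and 3719.8, 3303 and 3193 CPM in the tumor. The groups do not overlap, by the rule, and the tumor libraries held 1.24 more on the log2 scale than LLC blood, against 0.64 for the blood step. Ccr1, a receptor for inflammatory CC chemokines, had 27.4, 47.8 and 34.8 CPM in the healthy libraries, 69.3, 108 and 84.1 CPM in LLC blood and 634, 552 and 538 CPM in the tumor. Its blood step was 1.22 and its tumor step 2.71, so most of its rise was made in the tumor. Il4ra, the signalling chain shared by the IL-4 and IL-13 receptors, was at 132, 159 and 144 CPM in the healthy libraries, 284, 353 and 336 CPM in LLC blood and 699, 661 and 641 CPM in the tumor. The rise of Il4ra was nearly even, with steps of 1.15 and 1.04. Csf2rb2, the beta chain of the mouse IL-3 receptor, read 93.8, 109.6 and 95.6 CPM in the healthy libraries, 152, 183 and 175 CPM in LLC blood and 391, 342 and 377 CPM in the tumor. It is a near copy of Csf2rb, and its counts were shared with other genes in all 9 libraries, so its level is uncertain.

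Several members bind inflammatory ligands or microbial products. Il1r2, the decoy receptor that takes up IL-1 without signalling, went from 3.65 ± 1.41 CPM (SD, n = 3) in healthy blood, through 7.76 ± 1.34 CPM in LLC blood, to 267 ± 27.8 CPM in the tumor. On the log2 scale 15.6% of that rise was made in blood, and the tumor libraries gave 269.8, 237 and 293 CPM. Il1r2 is also on the neutrophil list, whose sum, Il1r2 included, was 833.7, 1351 and 1161 CPM in LLC blood and 625.1, 901.5 and 790.9 CPM in tumor. Single markers of that list differed in direction: Csf3r went from between 487.8 and 495.7 CPM in LLC blood to between 136.2 and 157.2 CPM in tumor, and Mmp9 went from between 0.628 and 3.39 CPM to between 33.9 and 88.4 CPM. The part of neutrophils in the Il1r2 values was not tested. Trem1, an amplifier of myeloid inflammatory signalling, had 8.65, 12.8 and 9.69 CPM in the healthy libraries, 12.9, 19.5 and 25.8 CPM in LLC blood and 555, 355 and 343 CPM in the tumor. The lowest LLC blood library nearly equalled the highest healthy library, the blood step was not called, and LLC tumor 1 was well above the other tumor libraries. Tlr4, the receptor for bacterial lipopolysaccharide, had 25.7, 33.5 and 27.1 CPM in the healthy libraries, 46.2, 57.4 and 58.2 CPM in LLC blood and 128, 147 and 125 CPM in the tumor. Tlr5, the receptor for flagellin, had 6.07, 7.25 and 4.90 CPM in the healthy libraries, 19.9, 24.97 and 20.8 CPM in LLC blood and 78.6, 67.9 and 75.5 CPM in the tumor. The steps of Tlr5, 1.69 and 1.71, were nearly equal, and its 3 groups lay far apart. Ptafr, the receptor for platelet-activating factor, stood at 37.4, 39.3 and 38.01 CPM in the healthy libraries, 50.3, 58.7 and 69.3 CPM in LLC blood and 159, 87.5 and 112 CPM in the tumor. Its blood step was not called, and its tumor libraries spread widely, with LLC tumor 2 the lowest. C5ar2, the second receptor for the complement fragment C5a, had 7.86, 7.49 and 5.58 CPM in the healthy libraries, 11.4, 13.9 and 12.2 CPM in LLC blood and 22.1, 16.9 and 19.4 CPM in the tumor.

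Ligands and inhibitory receptors of lymphocyte contact were also among the members. Raet1e, a ligand of the activating NK receptor NKG2D, was at 0, 0 and 0.376 CPM in the healthy libraries, 1.31, 5.33 and 3.84 CPM in LLC blood and 24.4, 25.7 and 26.6 CPM in the tumor. It was listed at 0 in 2 of the 3 healthy libraries and its counts were shared in 7 libraries, so its fold is not given. Cd200r1, an inhibitory receptor of myeloid cells for CD200, read 8.23, 9.87 and 9.15 CPM in the healthy libraries, 12.4, 19.2 and 16.9 CPM in LLC blood and 46.2, 41.8 and 40.6 CPM in the tumor, also from shared counts in all 9 libraries. Gpnmb, a transmembrane glycoprotein of macrophage lysosomes and the cell surface, had 3.50, 3.38 and 2.39 CPM in the healthy libraries, 8.13, 11.7 and 14.4 CPM in LLC blood and 154, 120.5 and 135 CPM in the tumor. The lowest tumor library of Gpnmb was many times its highest LLC blood library. Emp1, a small membrane protein of the tetraspan kind, went from 10.9 ± 2.94 CPM (SD, n = 3) in healthy blood, through 28.1 ± 10.3 CPM in LLC blood, to 1181 ± 187 CPM in the tumor. It had the largest tumor step of the receptor class, 5.34. The class also holds Cd300lf, Nrp2, Tarm1, Cd24a, P2ry2, Htr7, Ednrb, Lrp8, Raet1a, Prnp, Ocstamp and Dag1. Over its 26 genes the tumor step ran from 0.60 to 5.34, and 23 were called in the blood step.

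Secreted and extracellular proteins held some of the largest rises. Tgfbi (ENSMUSG00000035493), a secreted matrix protein induced by TGF-beta, was at 1637, 1565 and 1312 CPM in the healthy libraries, 2463, 2819 and 2746 CPM in LLC blood and 5565, 4134 and 5088 CPM in the tumor. Its steps were 0.83 and 0.88, so the blood step made about as much of the rise as the tumor step. Vcan (ENSMUSG00000021614), the large matrix proteoglycan versican, read 158, 206 and 156 CPM in the healthy libraries, 613, 1059.9 and 1053 CPM in LLC blood and 1395, 1917 and 1786 CPM in the tumor. Here the blood step was far larger, 2.38 against 0.90, and LLC blood 1 lay well below LLC blood 2 and 3. Adam8 (ENSMUSG00000025473), a membrane-bound metalloprotease of myeloid cells, showed the opposite order, with 29.6, 23.5 and 25.6 CPM in the healthy libraries, 42.9, 46.8 and 49.8 CPM in LLC blood and 2281, 2179 and 2365 CPM in the tumor. The tumor step of Adam8, 5.58, was the largest of all members, and its 3 tumor libraries lay within a narrow range. Ctsl, a lysosomal cysteine protease that can also be secreted, had 37.9, 38.7 and 39.6 CPM in the healthy libraries, 51.4, 77.9 and 70.8 CPM in LLC blood and 942, 1274 and 1087 CPM in the tumor. Mmp19, a matrix metalloprotease, had 37.6, 43.9 and 24.2 CPM in the healthy libraries, 63.6, 121 and 115 CPM in LLC blood and 302, 283 and 283 CPM in the tumor, from counts shared in all 9 libraries. Adam9, another membrane-bound metalloprotease, was at 70.8, 83.2 and 77.9 CPM in the healthy libraries, 122, 163 and 149.8 CPM in LLC blood and 252, 282 and 231 CPM in the tumor. The last 2 of these proteases rose by similar amounts in both steps, Mmp19 by 1.48 and 1.53 and Adam9 by 0.90 and 0.81.

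The genes of coagulation factors VII and X, which lie next to each other, were both members. F10, coagulation factor X, was at 164, 163 and 156 CPM in the healthy libraries, 323, 394 and 394 CPM in LLC blood and 768, 569.5 and 697 CPM in the tumor. F7, coagulation factor VII, which starts the extrinsic pathway with tissue factor, was at 2.501, 3.50 and 2.88 CPM in the healthy libraries, 4.69, 6.92 and 6.66 CPM in LLC blood and 36.7, 39.0 and 36.1 CPM in the tumor. F10 rose more in blood, with steps of 1.20 and 0.87, and F7 more in the tumor, with 0.84 and 2.43. Another adjacent pair, Spint1 and Rhov, had the largest blood steps of all members. Spint1 (ENSMUSG00000027315), a membrane-bound inhibitor of serine proteases best known from epithelia, had 1.501, 0.676 and 0.981 CPM in the healthy libraries, 4.399, 30.4 and 24.9 CPM in LLC blood and 179, 187 and 219.7 CPM in the tumor. LLC blood 1 held much less of it than LLC blood 2 and 3, and every tumor library was several times above every blood library. Rhov (ENSMUSG00000034226), an atypical small GTPase of the cytoskeleton class, read 0.643, 0.307 and 0.429 CPM in the healthy libraries, 4.49, 10.1 and 7.97 CPM in LLC blood and 191, 125 and 153 CPM in the tumor. The steps were 3.35 and 3.23 for Spint1 and 2.55 and 4.21 for Rhov.

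In RefSeq on GRCm38.p6, the assembly that the submitters' processing notes call mm10, Spint1 spans chr2:119237360-119249535 and Rhov chr2:119269201-119278008, with no other protein-coding gene between them. F7 spans chr8:13025506-13035809 and F10 chr8:13037308-13056676. The other adjacent member pairs were Snx9 with Synj2 on chromosome 17 and Slc39a14 with Piwil2 on chromosome 14. The RefSeq promoter windows of the first 2 pairs are shown because the genes of each pair are neighbours, each from 250 bases before to 50 after a transcript start. Letters in capitals match 1 of 5 short motifs, of 18 searched on either strand: AP-1 (TGANTCA), C/EBP (TTGCNNAA), 2 forms of the NF-kB site (GGGNNTTCC and GGNNTTTCC) and the hypoxia response core (ACGTG). The window of Spint1 lies at chr2:119237110-119237409 on the plus strand, that of Rhov at chr2:119271177-119271476 on the minus strand, that of F7 at chr8:13025784-13026083 on the plus strand and that of F10 at chr8:13037058-13037357 on the plus strand. For Rhov and F7 the start used lies inside the span of the gene, as a start of 1 of its transcripts.
Spint1: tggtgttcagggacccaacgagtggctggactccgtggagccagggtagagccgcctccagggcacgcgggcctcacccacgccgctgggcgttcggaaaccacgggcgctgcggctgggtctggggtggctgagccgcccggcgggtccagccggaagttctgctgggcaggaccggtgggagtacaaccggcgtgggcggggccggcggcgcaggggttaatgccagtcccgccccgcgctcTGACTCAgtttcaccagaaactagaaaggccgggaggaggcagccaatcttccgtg
Rhov: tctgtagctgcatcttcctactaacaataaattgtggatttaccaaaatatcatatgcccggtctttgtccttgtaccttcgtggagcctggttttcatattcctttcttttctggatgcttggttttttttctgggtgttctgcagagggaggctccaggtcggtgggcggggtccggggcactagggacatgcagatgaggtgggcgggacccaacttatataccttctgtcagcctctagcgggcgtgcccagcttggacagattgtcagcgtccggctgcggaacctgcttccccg
F7: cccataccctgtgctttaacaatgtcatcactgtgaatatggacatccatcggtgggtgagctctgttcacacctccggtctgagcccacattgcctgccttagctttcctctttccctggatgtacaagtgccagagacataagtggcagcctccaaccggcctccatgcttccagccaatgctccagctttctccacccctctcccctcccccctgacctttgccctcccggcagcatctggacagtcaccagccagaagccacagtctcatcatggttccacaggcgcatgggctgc
F10: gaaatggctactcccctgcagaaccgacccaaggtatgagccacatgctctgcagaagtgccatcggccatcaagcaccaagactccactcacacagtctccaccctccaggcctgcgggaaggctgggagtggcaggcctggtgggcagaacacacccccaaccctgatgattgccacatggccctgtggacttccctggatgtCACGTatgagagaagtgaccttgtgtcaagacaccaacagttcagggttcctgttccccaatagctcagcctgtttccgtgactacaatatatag
The Spint1 window holds an AP-1 match that begins at base -6 from the start, and the F10 window a hypoxia core at -45. The windows of Rhov and F7 hold none of the 5 motifs. So neither pair shares a matched motif in these windows, which says nothing of sites elsewhere.

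The matrix members differed in how evenly they were spread over the tumor libraries. Lamc1, the laminin gamma 1 chain of basement membranes, had 6.43, 9.03 and 8.64 CPM in the healthy libraries, 33.6, 51.5 and 43.4 CPM in LLC blood and 67.3, 210.0 and 192 CPM in the tumor. LLC tumor 1 lay nearer to the LLC blood libraries than to LLC tumor 2 and 3. Dmkn, dermokine, a secreted protein first known from the epidermis, was at 0.500, 1.23 and 0.429 CPM in the healthy libraries, 3.35, 11.1 and 7.39 CPM in LLC blood and 43.3, 46.4 and 49.4 CPM in the tumor. Its tumor libraries lay close together, and LLC blood 1 was the lowest of its group. The markers of LLC tumor and epithelial cells were summed above for all libraries, and their part in the values of Dmkn and Spint1 was not tested. Col7a1, the collagen of anchoring fibrils, had 3.50, 2.15 and 3.86 CPM in the healthy libraries, 6.21, 7.61 and 5.60 CPM in LLC blood and 8.67, 52.8 and 51.6 CPM in the tumor. Efemp2, a matrix protein of elastic fibres, had 2.43, 1.78 and 1.66 CPM in the healthy libraries, 3.54, 3.53 and 3.24 CPM in LLC blood and 8.94, 35.8 and 36.0 CPM in the tumor. Lamb2, the laminin beta 2 chain, read 0.286, 0.246 and 0.0613 CPM in the healthy libraries, 4.30, 0.484 and 0.290 CPM in LLC blood and 4.33, 20.74 and 20.9 CPM in the tumor. In these 3 genes the tumor libraries 2 and 3 were several times above LLC tumor 1, none of the 3 was called in the blood step, and for Lamb2 only LLC blood 1 was clearly above the healthy libraries. The summed fibroblast markers were likewise lowest in LLC tumor 1, at 975.7, 3624 and 4112 CPM over the tumor libraries, and highest within LLC blood in library 1, and their part in these values was not tested. The other members of the class were Olfml2b, Igfbp6, Fam20a, Nrg1, Cpd and Dpep2, and tumor means over the class ran from 15.3 to 4929 CPM.

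**Figure D4:**
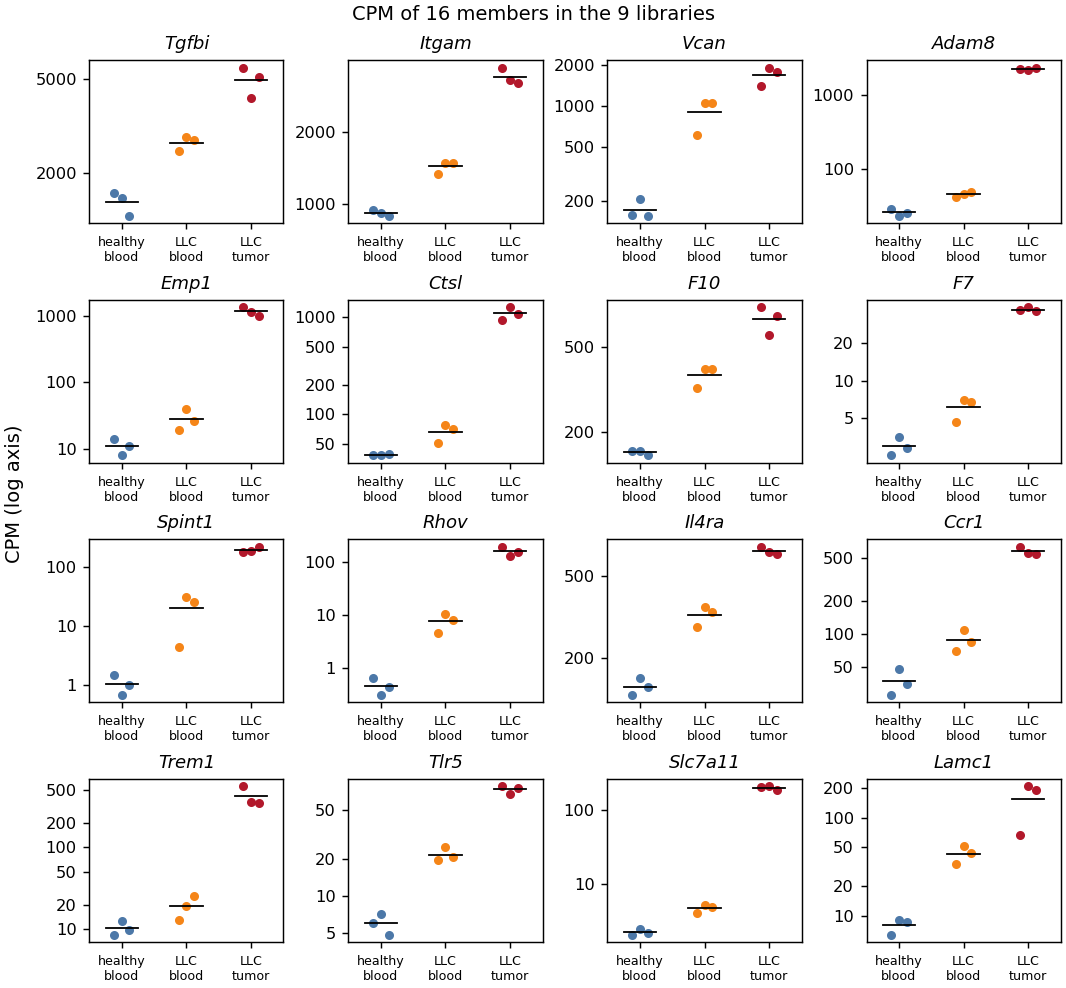
CPM (log axis, a separate scale for each gene) of 16 members in the 9 libraries; points are libraries 1 to 3 from left to right within each group and bars are group means. LLC blood 1 lies lowest in its group for all 16 genes, and LLC tumor 1 far below the other tumor libraries for Lamc1 alone among the genes shown.

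Cytoskeleton and membrane traffic was the largest class, with 42 members. S100a11, a calcium-binding protein of membrane repair, had 349.8, 332 and 285 CPM in the healthy libraries, 491, 555 and 559 CPM in LLC blood and 877, 709.9 and 826 CPM in the tumor. It had the smallest tumor step of all members, 0.59. Beside Rhov, the class holds Lmna, the nuclear lamina protein lamin A/C, which went from 14.3 ± 4.03 CPM (SD, n = 3) in healthy blood, through 34.4 ± 8.96 CPM in LLC blood, to 267 ± 40.7 CPM in the tumor. Rai14, an actin-bundling protein, had the largest tumor step of the class, 4.61, and went from 2.13 ± 0.255 CPM (SD, n = 3) in healthy blood, through 4.54 ± 1.48 CPM in LLC blood, to 135 ± 10.2 CPM in the tumor. Myof, a ferlin that acts in membrane fusion and repair, had nearly equal steps of 0.73 and 0.74. Eps8, an actin regulator, rose mainly in blood, from 50.4 ± 6.49 CPM (SD, n = 3) in healthy blood, through 144 ± 23.2 CPM in LLC blood, to 245 ± 22.9 CPM in the tumor. Regulators of small GTPases and of vesicle traffic are among the rest: Dock4, Fgd6, Arhgap5, Adap2, Rab11fip5, Rab3il1, Arl5b, Eea1, Snx9 and Synj2. Of the 42, 36 were called in the blood step, and the tumor step was the larger in all but 10.

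In metabolism and transport, the largest tumor steps belonged to a transporter and a lipid enzyme. Slc7a11, which imports cystine for glutathione synthesis, had 2.03, 2.38 and 2.12 CPM in the healthy libraries, 4.00, 5.08 and 4.88 CPM in LLC blood and 205, 214 and 191 CPM in the tumor. Its libraries agreed closely within each group, although its counts were shared in all 9 libraries. Agpat9, now named Gpat3, an enzyme of triglyceride synthesis, had 0.715, 2.03 and 0.674 CPM in the healthy libraries, 2.58, 3.11 and 2.80 CPM in LLC blood and 161, 96.8 and 106 CPM in the tumor. Its blood step was not called and 1 healthy library came near the LLC blood values. Mt1, a metallothionein that binds zinc and copper, went from 2.96 ± 0.660 CPM (SD, n = 3) in healthy blood, through 7.95 ± 1.93 CPM in LLC blood, to 124 ± 16.3 CPM in the tumor. Slc39a14, an importer of zinc and iron, went from 4.15 ± 0.507 CPM (SD, n = 3) in healthy blood, through 7.85 ± 2.41 CPM in LLC blood, to 156 ± 18.5 CPM in the tumor. The steps of these metal-handling genes were 1.18 and 3.80 for Mt1, and 0.78 and 4.15 for Slc39a14.

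Amino acid and lipid genes were less uniform. Arg2, the mitochondrial arginase, had 1.00, 1.90 and 0.934 CPM in the healthy libraries, 2.26, 3.46 and 3.30 CPM in LLC blood and 55.1, 42.4 and 44.97 CPM in the tumor, with shared counts in all 9 libraries. Ass1, which makes argininosuccinate on the way back to arginine, read 43.4, 41.8 and 37.4 CPM in the healthy libraries, 63.9, 71.5 and 70.3 CPM in LLC blood and 131, 78.9 and 110.3 CPM in the tumor. Its LLC tumor 2 library lay only slightly above the LLC blood libraries. Asns, the asparagine synthetase induced by amino acid shortage, was at 1.36, 0.983 and 0.429 CPM in the healthy libraries, 1.63, 2.84 and 2.27 CPM in LLC blood and 6.86, 13.5 and 14.2 CPM in the tumor. All its blood libraries were below 3 CPM, and LLC tumor 1 was the lowest tumor library. Fabp5, a fatty acid carrier, was at 29.4, 30.5 and 33.2 CPM in the healthy libraries, 47.6, 42.3 and 52.0 CPM in LLC blood and 306, 205 and 265 CPM in the tumor, and its blood step was not called. Kcna3, a voltage-gated potassium channel, had 1.21, 1.54 and 0.674 CPM in the healthy libraries, 6.12, 9.62 and 8.07 CPM in LLC blood and 37.9, 41.2 and 34.6 CPM in the tumor. Its steps were 2.06 and 2.12, and its groups lay far apart. Slc16a1, a lactate and pyruvate transporter, had 2.64, 4.30 and 4.11 CPM in the healthy libraries, 4.30, 7.75 and 6.04 CPM in LLC blood and 38.3, 90.1 and 77.8 CPM in the tumor, with LLC blood 1 at the level of the highest healthy library. The class also holds Scd2 and Fads1, which desaturate fatty acids, Stard4, Gramd1b and Osbpl1a, which move or bind sterols, and Uck2, Ppp1r3b, Galnt6, Atp2b4, Abcb1a, Slc44a1, Kcnk13, Cnnm2, Dagla, Phospho1, Pde8a, Gatsl2 and Endod1.

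The transcription, signalling and turnover class holds feedback regulators and transcription factors. Ier3, an immediate early gene of stress and NF-kB signalling, had 5.503, 7.19 and 8.15 CPM in the healthy libraries, 10.7, 13.3 and 12.8 CPM in LLC blood and 507, 678 and 674 CPM in the tumor. Only 11.7% of its rise was made in blood, the smallest share of all members. Socs3, the feedback inhibitor of STAT3 signalling, had 105, 107 and 83.7 CPM in the healthy libraries, 197, 289.6 and 236 CPM in LLC blood and 583, 589.8 and 593 CPM in the tumor. Its steps were nearly equal, 1.28 and 1.29, and the tumor libraries were almost identical. Vdr, the vitamin D receptor, went from 2.86 ± 0.140 CPM (SD, n = 3) in healthy blood, through 5.71 ± 1.41 CPM in LLC blood, to 80.1 ± 6.55 CPM in the tumor. Cdk6, a kinase of cell cycle entry, went from 1.48 ± 0.411 CPM (SD, n = 3) in healthy blood, through 5.41 ± 0.378 CPM in LLC blood, to 19.4 ± 4.68 CPM in the tumor. Klf7, a zinc-finger transcription factor, went from 1.26 ± 0.136 CPM (SD, n = 3) in healthy blood, through 6.03 ± 1.96 CPM in LLC blood, to 20.1 ± 3.76 CPM in the tumor, and Tfec, a relative of the lysosomal regulator Tfeb, from 15.2 ± 2.23 CPM (SD, n = 3) in healthy blood, through 32.2 ± 6.38 CPM in LLC blood, to 57.8 ± 6.17 CPM in the tumor. Ripk3 and Casp6 of cell death signalling rose by similar amounts in both steps. Over the 29 genes the blood step was the larger in 11, the most of any class.

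Of the 5 members with the largest tumor steps, Adam8, Ier3, Emp1 and Slc7a11 have matches to these motifs, so their windows are shown as well. The window of Adam8 lies at chr7:139992513-139992812 on the minus strand, that of Ier3 at chr17:35821463-35821762 on the plus strand, the first of Emp1 at chr6:135362681-135362980 on the plus strand and that of Slc7a11 at chr3:50443564-50443863 on the minus strand.
Adam8: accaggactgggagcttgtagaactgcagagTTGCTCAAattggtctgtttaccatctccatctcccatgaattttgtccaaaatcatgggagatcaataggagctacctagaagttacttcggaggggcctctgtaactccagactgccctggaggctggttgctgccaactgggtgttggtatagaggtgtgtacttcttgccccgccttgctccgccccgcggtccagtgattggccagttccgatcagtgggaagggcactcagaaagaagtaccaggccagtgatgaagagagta
Ier3: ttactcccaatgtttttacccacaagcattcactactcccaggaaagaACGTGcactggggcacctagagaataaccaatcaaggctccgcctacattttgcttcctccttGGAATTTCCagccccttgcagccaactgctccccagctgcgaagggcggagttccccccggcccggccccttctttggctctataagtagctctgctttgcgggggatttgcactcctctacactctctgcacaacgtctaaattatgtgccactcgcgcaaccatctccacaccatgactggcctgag
Emp1: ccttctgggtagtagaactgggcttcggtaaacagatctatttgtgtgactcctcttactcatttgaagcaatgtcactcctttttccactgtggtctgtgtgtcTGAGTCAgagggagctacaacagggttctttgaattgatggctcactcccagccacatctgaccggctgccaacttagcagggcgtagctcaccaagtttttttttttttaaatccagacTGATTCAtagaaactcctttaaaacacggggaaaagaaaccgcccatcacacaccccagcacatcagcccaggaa
Slc7a11: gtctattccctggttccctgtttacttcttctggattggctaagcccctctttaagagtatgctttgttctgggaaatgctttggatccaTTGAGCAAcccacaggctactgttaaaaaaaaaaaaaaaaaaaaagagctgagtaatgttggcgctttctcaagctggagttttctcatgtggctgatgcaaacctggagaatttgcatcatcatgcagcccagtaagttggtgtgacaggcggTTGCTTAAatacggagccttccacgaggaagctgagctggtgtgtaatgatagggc
This Emp1 window holds AP-1 matches at -145 and -25, while a second Emp1 window holds none of the 5 motifs. The Ier3 window holds an NF-kB form at -139 and a hypoxia core at -202. The Adam8 window holds a C/EBP match at -219, and the Slc7a11 window C/EBP matches at -160 and -6.

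Over all members, 118 had a promoter window in the RefSeq table, 152 windows in all, since 25 genes had several, some of them overlapping. An AP-1 match was found in 7.24% of these windows, 7.81% of all 32851 promoter windows and 5.40% of the 8377 windows of genes with a tumor mean of at least 10 CPM. The 11 windows with it belonged to Dmkn, Dock4, Emp1, Gpnmb, Lmna, Phospho1, Prnp, S100a11 and Spint1. The NF-kB form GGNNTTTCC was in 10.53% of member windows, 5.82% of all and 6.28% of those of genes at that tumor level, and the form GGGNNTTCC in 7.24%, 5.82% and 7.63%. The 16 windows with the first form include those of Ier3, Ctsl, Il4ra, Tlr5, Lmna and Hivep2. The C/EBP letters were in 11.8%, 10.8% and 8.50%, and the hypoxia core in 23.0%, 19.6% and 26.97%. CARE, the amino acid response letters TGATGNAA, was in 7.89% of member windows, 3.97% of all and 2.29% of those at that tumor level. Its 12 windows include those of Asns and Slc7a11. The RUNX letters TGTGGT went the other way, with 9.87%, 16.8% and 12.3%. Each share counts 152 windows at most, a match is not a bound site, and no test was run.

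Member windows had a GC content near that of other genes at this tumor level, and fewer of them were rich in CpG. The median GC content of member windows was 60% against 61.3% for genes with a tumor mean of at least 10 CPM and 52.7% for all promoters. Windows rich in CpG, with at least 50% GC and an observed to expected CpG ratio of at least 0.6, made up 49.3% of member windows, 69.8% at that tumor level and 33.5% of all. Members also spanned more of the genome. Their median span in RefSeq was 49.8 kb over 148 protein-coding members, against 23.3 kb over all tested genes, and 28.4% of them spanned at least 100 kb against 12.02%. Genes that met the blood condition and the tumor minimum without the tumor condition had a median of 70.2 kb, and those that met the tumor condition alone 26.7 kb.

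Lists of genes by function set the members beside their pathways. Of 36 lists with 704 genes in the table, 18 held a member, and 28 members were on a list. The lists were counted against the background of all tested genes: 14% higher and 9.61% lower in the blood step, and 29.6% higher and 31.7% lower in the tumor step. In the list of matrix proteases and their inhibitors, to which Adam8, Adam9 and Mmp19 belong, 5 of 21 tested genes rose in blood and 0 fell, and 15 rose and 1 fell in tumor. Of 17 tested genes on the arginine and polyamine list, 4 rose and 2 fell in blood, and 13 rose and 2 fell in tumor. Its members were Arg2, Ass1 and Slc7a11. Slc7a11 imports cystine and is not an arginine or polyamine enzyme, and it is among the 4 that rose in blood. Of 20 coagulation, fibrinolysis and thrombospondin genes, 3 rose and 3 fell in blood, and 18 rose and 2 fell in tumor. F7 and F10 were the members among them. Of 20 pattern recognition receptors, 6 rose and 1 fell in blood, and 6 rose and 9 fell in tumor. The members among them, Tlr4, Tlr5 and Trem1, rose in the tumor step by the rule. Of 24 cytokine and growth factor receptors, 5 rose and 3 fell in blood and 6 rose and 9 fell in tumor, with Il4ra and Csf2rb2 as members. Of 18 chemokine and chemoattractant receptors, 2 rose and 2 fell in blood and 13 rose and 3 fell in tumor.

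Some lists held no member or only 1. Of 24 tested genes of glucose uptake and glycolysis, 21 rose in tumor, 1 fell in blood and 0 rose there. Of 24 targets of hypoxia-inducible factor, 21 rose in tumor and 2 fell in blood. Of 20 chemokines, 19 rose in tumor, and 8 fell in blood with 0 rising. Of 28 genes of AP-1 and other immediate early factors, 24 rose in tumor and 7 fell in blood, and Ier3 was the member. Of 18 granule protein genes, 9 rose and 4 fell in blood, 1 rose and 15 fell in tumor, and none was a member. Interferon-stimulated genes and MHC class II genes had 0 of 30 and 0 of 10 higher in blood. The comparisons share the LLC blood libraries, so a high or low value there enters both steps with opposite sign.

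The libraries of a group did not contribute evenly. Summed over the members, the level was 5567, 5712 and 5122 CPM in the healthy libraries, 9305, 11686 and 11167 CPM in LLC blood, and 30994, 30331 and 30572 CPM in the tumor. LLC blood 1 was the lowest of its group in 128 members (83.7%), against 42.6% of all tested genes, and LLC blood 2 the highest in 112 (73.2%), against 36.0%. LLC blood 1 was the highest in 11 members: Fem1c, Rusc2, Adap2, Pls3, Slc44a1, Efemp2, Cdc42bpa, Fam20a, Lamb2, Rassf8 and Myh10. LLC blood 1 is also the library with 443.9 CPM of fibroblast markers. Other marker sums were lowest in LLC blood 1 and highest in LLC blood 2. These were neutrophil (833.7, 1351 and 1161 CPM), erythroid (168.5, 920.4 and 363.9 CPM) and endothelial markers. Those of monocytes, dendritic cells and mature macrophages went in the reverse order. The part of any of these cells in the member values was not tested. Myh10, a non-muscle myosin heavy chain, was at 0.430, 0.801 and 0.860 CPM in the healthy libraries, 4.83, 1.33 and 0.976 CPM in LLC blood and 6.56, 14.4 and 10.0 CPM in the tumor, from shared counts, and Cdc42bpa, a kinase that acts on the actin cytoskeleton, at 0.288, 0.185 and 0.429 CPM in the healthy libraries, 1.53, 0.830 and 0.532 CPM in LLC blood and 6.04, 26.4 and 19.8 CPM in the tumor. Without LLC blood 1 the blood ratios, with 1 CPM added, were 1.16 for Lamb2, 1.27 for Myh10, 1.29 for Cdc42bpa and 1.31 for Pls3, under the 1.5 of the rule.

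Between tumor libraries, the mean of LLC tumor 2 and 3 was 3.96 times LLC tumor 1 for the summed fibroblast markers. The same ratio had a median of 1.11 over the members and 1.22 over all tested genes. It was at least 2 in 15 members (9.80%), against 16.4% of tested genes, and under 1 in 56. Matrix genes led it: Col7a1 with 6.02, Lamb2 with 4.81 and Efemp2 with 4.02, followed by Cdc42bpa with 3.83, Syne1 with 3.79 and Lamc1 with 2.99. Adam8, Tgfbi and F10 were not among the 15. Every tumor library of each member, LLC tumor 1 included, lay above all LLC blood libraries by the rule.

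**Figure D5:**
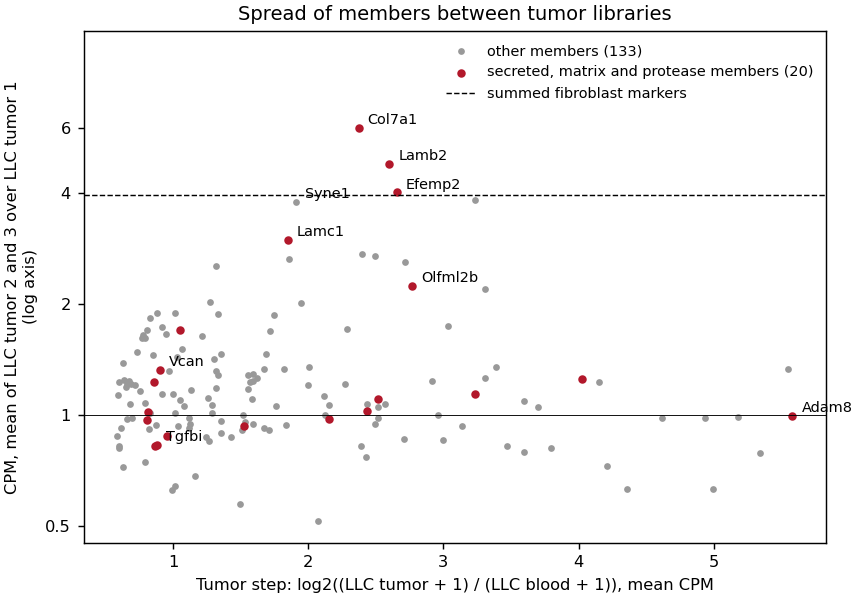
Ratio of the mean CPM of LLC tumor 2 and 3 to that of LLC tumor 1 (log axis) against the tumor step of each member; red points are the 20 secreted, matrix and protease members and the dashed line is the ratio of the summed fibroblast markers, 3.96. Col7a1, Lamb2 and Efemp2 lie on or above the dashed line, and most members lie between 0.5 and 2.

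Each library was also left out of the rule in turn and then compared with the genes that the other 8 libraries chose. Those 8 include every library it was compared with and the rest of its own group, so the choice itself favours high shares. The tested genes were not chosen in this way, and the shares are a description with no test. A left-out healthy library lay below all LLC blood libraries for 95.7%, 96.4% and 96.4% of the chosen genes. The same held for 39.3%, 37.7% and 38.6% of all tested genes. A left-out LLC blood library lay between the other groups for 93.5%, 97.2% and 98.1% of them, against 9.82%, 8.203% and 7.99% of tested genes. For a left-out tumor library, 86.7%, 100% and 99.4% of the chosen genes lay above all LLC blood libraries, against 26.98%, 37.7% and 35.7%. The lowest value, 86.7% or 156 of 180 genes, belonged to LLC tumor 1. Of the 153 members, 102 were chosen whichever library was left out, and 51 depended on at least 1 library.

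The edges of the rule cut through a continuous range of values. Just inside the blood ratio of 1.5 lay Efemp2, Slc16a1 and Ckap5, at 1.50017, 1.50062 and 1.50446, and just outside it Tmem2, Tns2 and Itpr3, at 1.49965, 1.49906 and 1.49866. At the tumor ratio, S100a11, Dock4 and Cpeb4 were inside at 1.503, 1.509 and 1.515, and Cd93, Itga1 and Heatr1 outside at 1.489, 1.488 and 1.470. By tumor mean, Myh10, Osbpl1a and E330009J07Rik were inside at 10.3, 11.004 and 11.3 CPM, and 4930413G21Rik, Gnb5 and Kif1a outside at 9.07, 8.81 and 3.50 CPM. Cd93, a surface receptor, had a mean of 170.1 CPM in healthy blood, 441.2 CPM in LLC blood and 657.3 CPM in the tumor.

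Of the 153 members, 142 had an Ensembl identifier in the deposited CPM table and 11 had none. In 40 members the counts were not whole numbers in at least 1 library, which marks reads shared with another gene, and in 14 this held in all 9. Among the 14 were Scd2, Csf2rb2, Cd300lf, Mmp19, Slc7a11, Ifitm1, Arg2, Cd200r1, Abcb1a and Myh10. The genes not classed were Ifitm1, Adgb, Slfn10-ps, Gdap10 and 4 predicted or clone-named genes, with tumor means between 11.3 and 136.4 CPM. The entry 7-Mar is a gene symbol turned into a date, and it was kept under that name.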

How the data were processed

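RNA-seq of 9 libraries was used. The authors deposited a table of estimated counts (expected counts, not normalized, many of them not whole numbers) with 24411 entries under gene symbols, and a table of CPM values for 10693 of these genes. The submitters' processing notes name the mm10 build and Trim Galore, cutadapt 3.4, STAR 2.6.1d, Salmon 1.9.0 and edgeR for the series, with no role given. All CPM values deposited were whole multiples of 1 read (100%, within 0.01 read). The CPM table holds 142 of the members, and only these could enter a fit of the recovered reads. In that fit edgeR called 122 of the 142 higher in blood and all 142 in tumor. The share of all genes called in that fit is not given here.

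From the counts, CPM was computed over all entries of each library, and the rule was applied to group means. Rounded counts were fitted with edgeR 4.0.16 (R 4.3.3; quasi-likelihood, TMM, filterByExpr, group as the only term) on all 9 libraries, which kept 12337 genes, with Benjamini-Hochberg adjustment over all of them. TMM scaling puts the median log2 fold change of all tested genes in the tumor step at -0.03, where plain CPM gives -0.21. DESeq2 1.42.0 and limma-voom 3.58.1 were alternatives. Library totals of 10457492 to 20706412 counts set the precision, and genes of a few CPM rest on few counts.

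Members, classes, gene lists and motifs were chosen with earlier results of these data known. Named members are the 8 with the highest tumor mean, the 8 with the largest smaller step, the 5 with the largest blood step, the 5 with the largest tumor step, up to 4 per list, and those at the edges of the rule. Other members were named to describe their class, and were chosen after their values were seen. Positions, spans and promoter sequences are from RefSeq on GRCm38.p6, matched by symbol or synonym for 151 members. Sequence on chromosome 18 was not printed. Ly6g and Acod1 of the neutrophil list were not used here. Of the members the naming rule covers, 1 is not reported here.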

Additional observations from a re-analysis of the deposited data

How the results depend on the processing

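The rule chose 153 genes as given, 176 with TMM factors and 177 with median-ratio factors, of which 143 and 138 were members. Adding 5 CPM in place of 1 left 89, and a ratio of 2 in each step left 47, with 7 members on a functional list in place of 28. Leaving out each library gave 142 to 180 genes, a median blood step of 0.80 to 0.94 and a median tumor step of 1.39 to 1.54. With 5 CPM added these medians were 0.63 and 1.23, and the tumor step was 1.72 with TMM and 1.78 with median-ratio factors. Members called higher in blood numbered 95 without LLC blood 2 and 150 without LLC tumor 1, the lowest and highest of the leave-one-out fits, and those called in both steps likewise. The tumor count stayed at 153 in each of them and was 152 with limma-voom. With DESeq2 144 were called in blood and with limma-voom 123. The share of all tested genes called in each alternative fit is not given here. A change in these counts is therefore not read as a trait of the members. Deviations of same-numbered libraries from their group means correlated between -0.14 and 0.30, highest for healthy blood 1 with LLC blood 1. For LLC blood with LLC tumor they correlated at -0.08, 0.12 and -0.14. With 3 libraries a group, this cannot tell whether blood and tumor came from the same animals. With a replicate block 136 members were called in blood and 153 in tumor. In a window from 100 bases before the start, the median motif share fell from 7.24% to 3.29%, since the window is shorter. Of 39 named members, 11 lost the blood call in some alternative, most often Asns (12 settings), and 0 lost the tumor call. Only genes with whole counts in all libraries, a choice added after the data were seen, left 113. With 3 libraries a group, low counts limit genes such as Raet1e and Cdc42bpa in blood. Where no cause is given, the cause was not tested.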

Other observations

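The 11 members highest in LLC blood 1, the library with 443.9 CPM of fibroblast markers, include 7 that the rule no longer chose without that library because their blood ratio fell under 1.5: Cdc42bpa, Efemp2, Fam20a, Fem1c, Lamb2, Myh10 and Pls3. A blood ratio can fall in this way only where the removed library lies above its group mean, so the overlap is built in. The ratio of LLC tumor 2 and 3 to LLC tumor 1 was 0.516 for Fem1c, 0.972 for Fam20a and between 1.86 and 4.81 for the rest of the 7. A further 12 members were lost without LLC blood 1 because their tumor ratio fell under 1.5, among them Ass1, C5ar2, S100a11, Dock4, Cpeb4, Galnt6 and Dmxl2. LLC blood 2 was the library on whose removal most members lost their place, 24, all by the blood ratio. The part of library composition in these values was not tested.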
